A study of Mus musculus with 40 samples.

Results

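In macrophages, 5962 CTCF peaks lay on a SMARCA5 peak and touched no peak of the myeloid transcription factors PU.1 and C/EBPb. They are called CTCF-SMARCA5 sites here. They were chosen by peak overlap in the authors' consensus lists: the CTCF peaks on the 19 autosomes and chromosome X that share at least 1 bp with a SMARCA5 peak and no base with a PU.1 or C/EBPb peak. They made up 23.6% of the 25280 CTCF peaks on these chromosomes, in a list of 25307. Of the CTCF peaks free of both myeloid factors, 30.8% lay on a SMARCA5 peak, against 69.5% of the 5929 CTCF peaks that touched PU.1 or C/EBPb. Overlap of the called peaks chose the sites, so these shares describe the selection and are not read further.

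CTCF is a zinc-finger protein that binds a long DNA motif, blocks the movement of cohesin along DNA and so marks chromatin loop anchors and insulators. SMARCA5, also called SNF2H, is the ATPase of ISWI remodelling complexes, which slide nucleosomes and space them evenly. SMARCA5 is known from other cells to support CTCF binding and the regular nucleosome arrays on either side of CTCF sites. PU.1 and C/EBPb are the factors that establish macrophage enhancers.

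The cells were bone marrow-derived macrophages of Csf1r-Cre wild-type mice and of Smarca5 lox/lox Csf1r-Cre knockout mice, both given 4-hydroxytamoxifen daily over 7 days of differentiation. The Csf1r promoter drives Cre in the macrophage lineage. CTCF, PU.1 and C/EBPb were each profiled by chromatin immunoprecipitation in untreated cells, with 2 wild-type and 2 knockout libraries. SMARCA5 was profiled after micrococcal nuclease digestion in 8 libraries, 2 of each genotype untreated and 2 of each after 2 h of lipopolysaccharide (LPS) at 10 ng/ml. Each protein had 1 consensus list for the series, on the mouse build mm39. A total of 0 columns gave a library, so genotypes and LPS could not be compared, and the loss of SMARCA5 in knockout cells and the identity of the cells could not be checked in these files. A SMARCA5 peak may therefore have been called after LPS only, while the CTCF peak on it was called in untreated cells. Likewise, a CTCF peak may have been called in knockout libraries only. CTCF and SMARCA5 at a site need not come from the same genotype. Read depth is unknown. For the same reason differences between groups of peaks have no replicate error and no test. They are given with the spread over peaks and with the number of the 20 chromosomes on which they had the same direction, as a description. Intervals of shares are 95% Wilson intervals, which cover counting error only and treat peaks as independent, which neighbours are not.

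Few CTCF peaks lay at the edge of the selection. The CTCF-SMARCA5 sites with the smallest overlap shared 3 bp, 6 bp and 6 bp with SMARCA5. The first spanned 121343982 to 121344330 of chromosome 3, with a CTCF fold enrichment of 16.0. The others spanned 17350157 to 17350551 of chromosome 16, at 10.4, and 94738639 to 94739515 of chromosome 8, at 7.94. Just outside, CTCF peaks with gaps of 1, 1 and 2 bp to SMARCA5 spanned 122639844 to 122640200 of chromosome 10, 121288842 to 121289171 of chromosome 8 and 15797598 to 15797918 of chromosome 17. Their fold enrichments were 9.80, 7.38 and 9.82. Only 24 of the 5962 sites overlapped SMARCA5 by less than 50 bp, and 23 of the 13389 CTCF peaks with none of the other proteins lay less than 100 bp from it. At most sites the overlap was complete. The CTCF peak was wholly inside the SMARCA5 peak at 4837 sites (81.1%, interval 80.1 to 82.1), and its summit was inside at 5699 (95.6%, 95.04 to 96.1).

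CTCF-SMARCA5 sites were stronger than CTCF peaks with no other protein and weaker than CTCF peaks with both SMARCA5 and PU.1. Strength is the authors' fold enrichment of each CTCF peak over its local background. At CTCF-SMARCA5 sites it had a median of 12.3, with 50% of sites between 9.62 and 15.2 and a full range from 5.17 to 28.5. CTCF peaks with none of the other proteins had a median of 10.995 (quartiles 8.98 and 13.4). The 2446 peaks with SMARCA5 and PU.1 but no C/EBPb had 13.3 (9.99 and 17.0), and the 1123 with all 4 proteins 13.0 (9.56 and 16.9). CTCF peaks without SMARCA5 had medians of 12.8 with PU.1, 12.6 with C/EBPb and 12.3 with both, and the 553 with SMARCA5 and C/EBPb had 12.8. The excess over CTCF alone was thus not particular to peaks with SMARCA5. The ranges overlapped widely. The median was higher at CTCF-SMARCA5 sites than at CTCF alone on all 20 chromosomes, by 0.437 to 2.08. It was lower than with SMARCA5 and PU.1 on 18 and lower than with all 4 on 14. The sites on SMARCA5 peaks with no PU.1 or C/EBPb along them had a median of 13.1, close to the 13.3 and 13.0 of those groups. The excess of 1.32 over CTCF alone was 2.08 for sites on SMARCA5 peaks with no PU.1 or C/EBPb anywhere along them, and 0.177 in the upper 50% of the CTCF list by the authors' -log10 q.

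**Figure D1:**
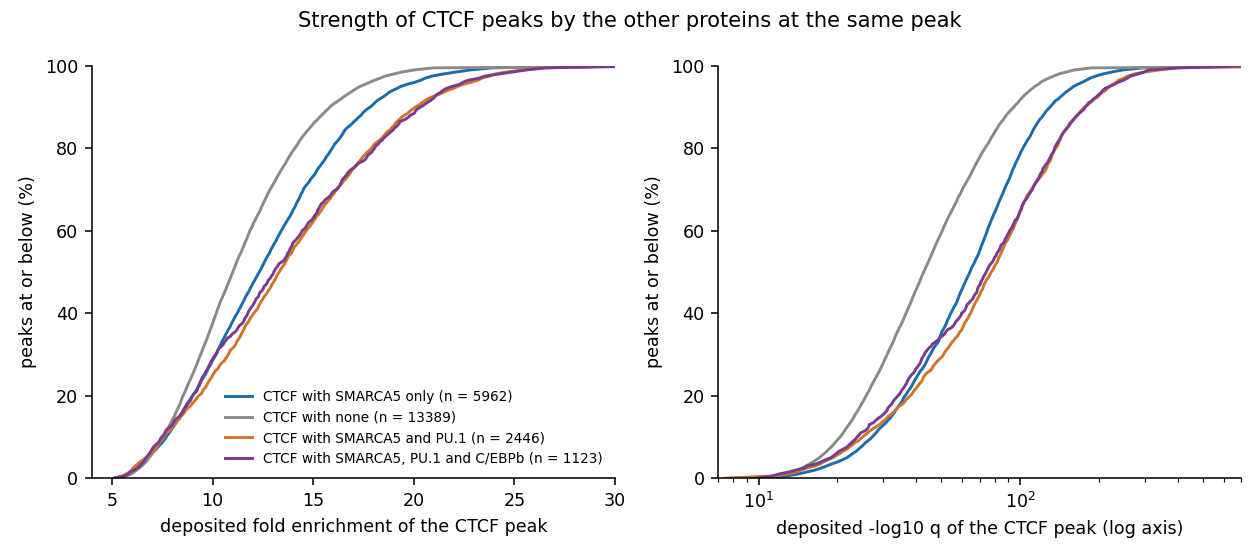
The curves give the percentage of CTCF peaks (vertical axis) at or below each deposited fold enrichment (left) or -log10 q (right, log axis), for 4 groups of CTCF peaks named by the other proteins at the peak. At the 50% level, CTCF-SMARCA5 sites (n = 5962) lie between CTCF alone (n = 13389) and the groups with PU.1; CTCF-SMARCA5 sites, CTCF alone and CTCF with SMARCA5 and PU.1 have medians of 12.3, 10.995 and 13.3 in fold enrichment.

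For CTCF alone, CTCF-SMARCA5 sites and the groups with SMARCA5 and PU.1, the order of medians was the same in the authors' -log10 q. This value measures how surely a peak stands above background. Its median was 64.3 at CTCF-SMARCA5 sites (quartiles 40.6 and 94.0) against 42.8 for CTCF alone (28.4 and 66.2) and 77.5 with SMARCA5 and PU.1 (43.2 and 126). Without SMARCA5 it was 64.0 with PU.1, 57.5 with C/EBPb and 61.4 with both. The largest value at a CTCF-SMARCA5 site was 654. The peaks were slightly wider, with a median of 408 bp against 391 bp for CTCF alone and 425 bp with SMARCA5 and PU.1. CTCF peaks over 600 bp made up 3.76% of CTCF-SMARCA5 sites (3.30 to 4.27) and 1.16% of CTCF alone (0.990 to 1.35). The other groups were also above CTCF alone. The share was 6.17% with SMARCA5 and PU.1, 7.41% with SMARCA5 and C/EBPb and 7.30% with all 4 proteins. Without SMARCA5 it was 2.58% with PU.1, 3.22% with C/EBPb and 9.42% with both.

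The share of CTCF peaks with SMARCA5 depended on strength, and the shape of this relation on the measure of strength. Among CTCF peaks without PU.1 or C/EBPb, ranked by -log10 q into 10 equal groups, the share on a SMARCA5 peak went from 15.3% (13.8 to 17.0) in the weakest to 55.4% (53.2 to 57.6) in the strongest. Ranked by fold enrichment it was 28.4% (26.4 to 30.4) in the weakest group, lowest at 22.7% (20.9 to 24.7) in the third, and 48.8% (46.6 to 51.0) in the strongest. In the weakest group by fold enrichment, SMARCA5 peaks that held PU.1 or C/EBPb at another place along their length took 71.0% of the 549 CTCF-SMARCA5 sites, against 37.4% of the 944 in the strongest group. Still by fold enrichment, SMARCA5 peaks free of both myeloid factors held 8.21% of the CTCF peaks in the weakest group and 30.5% in the strongest, and this share was higher in each group than in the one before. By -log10 q it went from 5.11% to 31.2%, with a dip from 12.5% in group 4 to 11.99% in group 5.

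**Figure D2:**
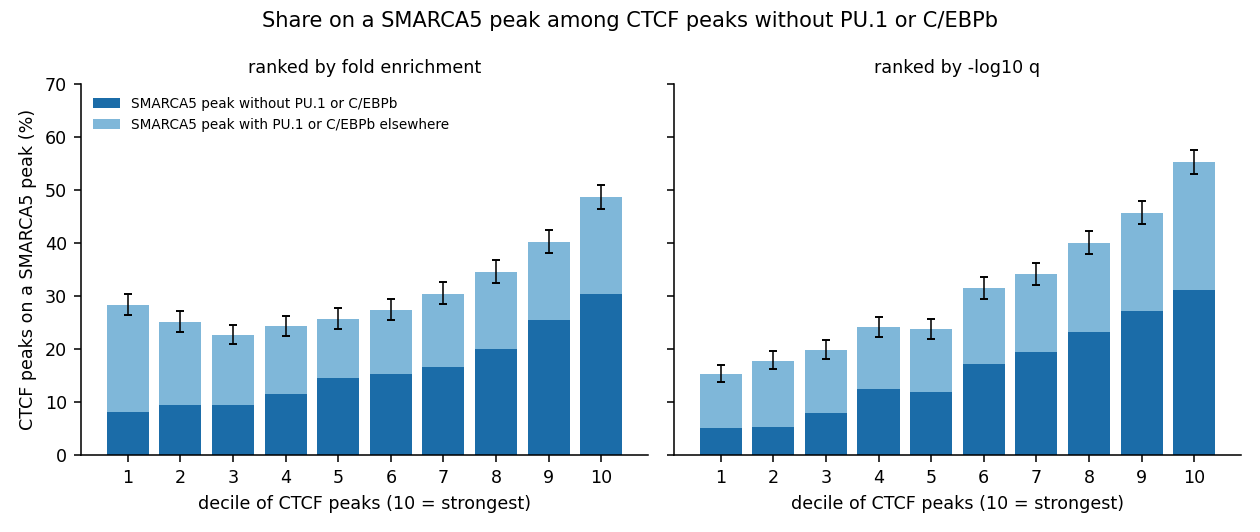
Bars give the percentage of CTCF peaks without PU.1 or C/EBPb that lie on a SMARCA5 peak, in 10 groups of increasing fold enrichment (left) or -log10 q (right). Dark bars are SMARCA5 peaks free of PU.1 and C/EBPb, light bars those that hold either elsewhere, and lines are 95% Wilson intervals of the sum. The dark part grows from 8.21% to 30.5% on the left, while the sum is lowest, at 22.7%, in group 3.

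At equal -log10 q, CTCF-SMARCA5 sites had the lower fold enrichment. In the weakest of the 10 groups by -log10 q their median fold was 6.73 against 7.43 for CTCF alone, in the sixth 11.5 against 12.4, and in the strongest 18.0 against 18.1. The fold was lower in all 10 groups.

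The leading sites lay on SMARCA5 peaks with SMARCA5 fold enrichments from 1.94 to 2.45. The highest fold enrichment, 28.5 with a -log10 q of 492, was on chromosome 2 from 29509393 to 29509788. It lay on a 3037 bp SMARCA5 peak with a SMARCA5 fold enrichment of 1.99 and no PU.1 or C/EBPb. Next came chromosome 9 from 111118856 to 111119377 at 27.8 and chromosome 8 from 71082315 to 71083186 at 26.7, the latter with the highest -log10 q of all, 654, over 872 bp. The fourth, on chromosome 9 from 78020212 to 78020751, reached 26.4, and the fifth, on chromosome 19 from 59227843 to 59228355, 26.2. The same first 4 led by -log10 q, followed by chromosome 9 from 72437475 to 72437957, at 421. Of these 6 sites, 3 shared their SMARCA5 peak with a PU.1 or C/EBPb peak elsewhere on it, and each was the only CTCF peak there. The SMARCA5 peak under the chromosome 19 site was 705 bp wide with a fold enrichment of 2.45, and the CTCF summit was 72.5 bp from its centre. Under the last site, on chromosome 9, it was 679 bp wide with 1.94, and the summit was 79.5 bp from the centre.

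Across all sites, CTCF and SMARCA5 fold enrichment were weakly related. The SMARCA5 values covered a narrow range (quartiles 2.00 and 2.21), which limits what a correlation can show. Over the 5962 sites, Spearman's rho between the CTCF fold enrichment and that of the SMARCA5 peak under it was 0.096, where neighbouring sites can share a SMARCA5 peak. From the lowest to the highest of 5 equal groups by SMARCA5 fold enrichment, with SMARCA5 medians of 1.92 and 2.34, the median CTCF fold was 11.9 and 13.0. SMARCA5 peaks in the highest group were narrower, with a median width of 1712 bp against 3167 bp, and held PU.1 or C/EBPb at 28.2% of sites against 64.5%.

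The sites fell on 5679 SMARCA5 peaks, which were 15.3% of the 37054 SMARCA5 peaks on these chromosomes. Most of these SMARCA5 peaks, 5404, held 1 such site, 267 held 2 and 8 held 3. Their median width was 2443 bp (quartiles 1359.5 and 4002.5), close to the 2566 bp of the SMARCA5 peaks without such a site. Their median SMARCA5 fold enrichment was 2.09 against 2.08.

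Freedom from PU.1 and C/EBPb at the CTCF peak did not mean freedom along the SMARCA5 peak. At 2835 sites (47.6%, 46.3 to 48.8) the same SMARCA5 peak held a PU.1 or C/EBPb peak elsewhere, called a mixed SMARCA5 peak below. It held both factors at 1406 sites, PU.1 without C/EBPb at 1258 and C/EBPb without PU.1 at 171. The other 3127 sites (52.4%, 51.2 to 53.7) lay on SMARCA5 peaks with CTCF as the only profiled factor, called CTCF-only SMARCA5 peaks.

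CTCF was stronger and SMARCA5 narrower where CTCF was the only factor. The CTCF fold enrichment had a median of 13.1 on CTCF-only SMARCA5 peaks (quartiles 10.5 and 15.8) and 11.4 on mixed ones (8.69 and 14.3), and was higher on the former on 19 of 20 chromosomes. The median -log10 q was 69.6 against 57.9, higher on all 20. The SMARCA5 peaks themselves had median widths of 1560 bp (quartiles 960.5 and 2431.5) and 3889 bp (2737 and 5587.5). Their SMARCA5 fold enrichment was 2.14 (2.03 and 2.26) and 2.05 (1.97 and 2.15), higher for the CTCF-only peaks on all 20 chromosomes, although their SMARCA5 -log10 q was lower, at 3.25 against 4.02. A wider SMARCA5 peak has more room for another factor, and the part of this in the gap in width was not tested. The CTCF difference was also seen among SMARCA5 peaks of like width: from 1000 to 1500 bp the median CTCF fold was 13.4 on CTCF-only peaks and 11.8 on mixed ones, and from 3000 to 5000 bp it was 12.6 and 11.5. Over 5000 bp it was 11.1 and 10.9.

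Over all sites the CTCF summit showed only a slight lean to the middle of the SMARCA5 peak. Of the 5699 summits inside, 52.2% (50.9 to 53.5) lay in its inner 50%, against 50% for an even spread, and 49.5% (48.2 to 50.8) lay right of the centre. With the peak cut into 10 equal bins, the fullest held 10.8% of summits and the emptiest 8.63%.

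This near-even picture was the sum of opposite ones. On CTCF-only SMARCA5 peaks 62.2% of 3002 summits (60.4 to 63.9) lay in the inner 50%, and the outermost of the 10 bins held 4.86% and 5.00% of them, against 13.0% in each of both central bins. The median distance from summit to centre was 281 bp. On mixed SMARCA5 peaks 41.1% of 2697 summits (39.2 to 43.0) lay in the inner 50%. There the outermost bins held 13.1% and 12.7%, and the central ones 6.38% and 7.68%. The median distance to the centre was 1017.5 bp. The share in the inner 50% was higher on CTCF-only peaks on all 20 chromosomes, by 9.71 to 30.03 percentage points. A site on a mixed peak has to leave room for a PU.1 or C/EBPb peak that it does not touch, so the rule itself keeps both from taking the centre.

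Narrow SMARCA5 peaks were the most closely centred on CTCF. On CTCF-only peaks of up to 1000 bp, 76.8% of 786 summits (73.8 to 79.7) lay in the inner 50%, with a median of 95.75 bp from the centre, in SMARCA5 peaks of 727.5 bp median width. The share was 61.8% from 1000 to 1500 bp and between 53.8% and 57.7% from 1500 to 5000 bp. Over 5000 bp it was 48.9% of 94 summits (39.1 to 58.9), which includes even placement. On mixed peaks it was 32 of 100 from 1000 to 1500 bp, 31.98% of 172 from 1500 to 2000 bp and 42.8% over 5000 bp. Up to 1000 bp it was 61.1% of only 18 such summits (38.6 to 79.7), which includes even placement. The share varied less with CTCF strength: from the weakest to the strongest of 5 equal groups the share was 58.7% and 64.6% on CTCF-only peaks and 45.4% and 38.1% on mixed ones.

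**Figure D3:**
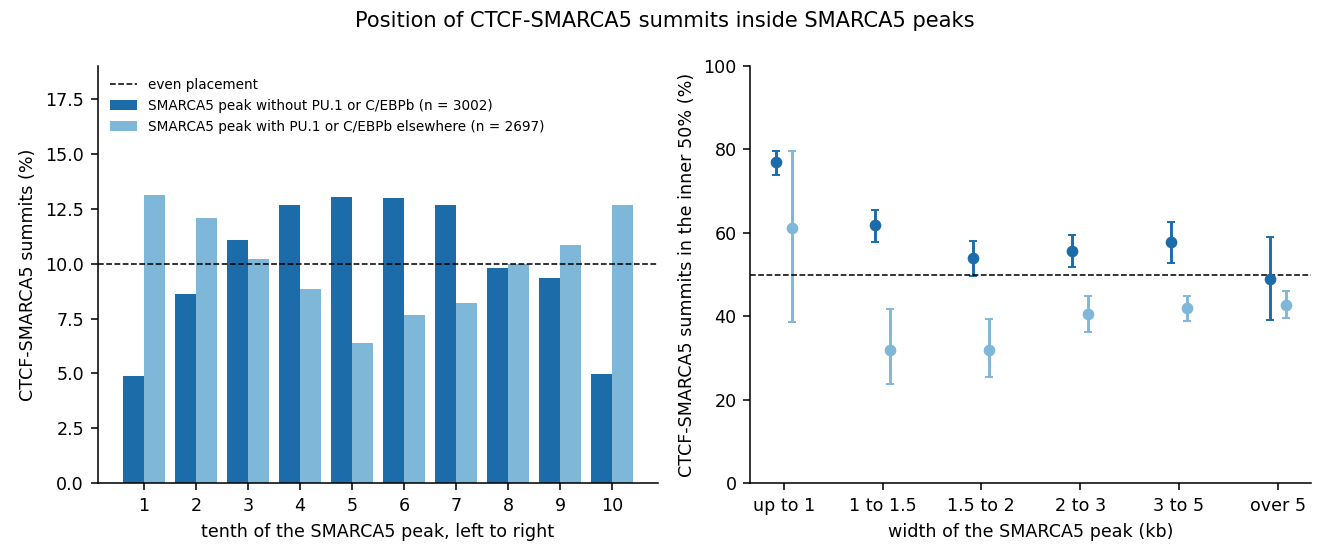
Left, the percentage of CTCF-SMARCA5 summits in each of 10 equal bins along the SMARCA5 peak, for SMARCA5 peaks with CTCF only (dark, n = 3002) and those with PU.1 or C/EBPb elsewhere (light, n = 2697). Right, the percentage in the inner 50% by SMARCA5 width in kb, with 95% Wilson intervals; dashed lines mark even placement. Dark summits peak in the central bins at 13.0%, light ones in the outermost bins at 13.1% and 12.7%.

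The position of CTCF peaks that touch PU.1 depended on the sites they were set beside. Of CTCF summits at peaks with SMARCA5 and PU.1, 60.2% (58.3 to 62.2) lay in the inner 50%, and of those with all 4 proteins 66.5% (63.7 to 69.2). The 52.2% of all CTCF-SMARCA5 sites was lower than these on 18 and on 20 of 20 chromosomes. Sites on CTCF-only SMARCA5 peaks, at 62.2%, were close to those with PU.1, and their median distance to the centre was 281 bp against 463.75 bp, on narrower SMARCA5 peaks. At equal width the order varied: up to 1000 bp the share was 76.8% for CTCF-only peaks and 69.4% with PU.1 at the CTCF peak, and from 1000 to 1500 bp it was 61.8% and 60.1%. In SMARCA5 peaks of 3000 to 5000 bp the shares were 57.7% for CTCF-only peaks, 41.9% for mixed ones, 60.5% with PU.1 at the CTCF peak and 68.2% with all 4 proteins.

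The simplest mixed SMARCA5 peaks give the places of CTCF and PU.1 side by side. The rule keeps the peaks from touching and both lie on 1 SMARCA5 peak, so their separation and their sides of the centre are in large part set by the selection and are given as a description. A total of 766 held 1 CTCF-SMARCA5 site, 1 PU.1 peak, no C/EBPb and no other CTCF, with both summits inside. Their median width was 3169 bp and the summits lay a median of 1162 bp apart (quartiles 792.25 and 1825.75, range 251 to 6824). CTCF and PU.1 lay on opposite sides of the centre in 554 of them (72.3%). The CTCF summit was the closer to the centre in 311 (40.6%, 37.2 to 44.1), and 41.4% of CTCF summits against 56.7% of PU.1 summits lay in the inner 50%. Over all mixed peaks, 56.9% of 3097 PU.1 summits did so (55.1 to 58.6), against the 41.1% of CTCF.

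Cover by SMARCA5 around the CTCF summit in large part restates peak width and is given as a description. Median widths were 1560 bp on CTCF-only and 3889 bp on mixed peaks. On CTCF-only peaks SMARCA5 reached a short way from CTCF. At 250 bp from the summit a SMARCA5 peak covered 83.4% of positions, averaged over both sides, at 500 bp 60.6%, at 1000 bp 34.2% and at 2000 bp 15.3%. At 10000 bp it was 10.97%, against 6.56% at that distance from CTCF peaks with none of the other proteins. On mixed peaks the same shares were 88.6%, 79.8%, 67.1% and 46.6%, and 15.1% at 10000 bp. Cover was often on 1 side only: at 1000 bp from the summit, both sides were covered at 12.6% of sites on CTCF-only peaks and 1 side at 43.3%, and on mixed peaks at 37.2% and 59.9%.

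CTCF-SMARCA5 sites lay closer to other CTCF sites than CTCF alone did. The median distance to the nearest CTCF summit of any kind was 13394 bp (quartiles 5350 and 29530.8) against 17839 bp for CTCF alone (7593 and 41546), and it was shorter on all 20 chromosomes. It was 14605.5 bp for sites with SMARCA5 and PU.1, and 17216 bp with all 4 proteins. Without SMARCA5 it was 14611 bp with PU.1, 15146 bp with C/EBPb and 14400 bp with both, also shorter than for CTCF alone. Another CTCF summit lay within 5000 bp of 23.3% of CTCF-SMARCA5 sites (22.3 to 24.4), 14.2% of CTCF alone (13.6 to 14.8) and 19.8% of sites with SMARCA5 and PU.1 (18.3 to 21.5). It was 18.8% with SMARCA5 and C/EBPb, but 13.8% (11.9 to 15.9) with all 4 proteins, near the share of CTCF alone. For CTCF peaks without SMARCA5 this share was 15.3% with PU.1, 12.6% with C/EBPb and 14.3% with both. A wide SMARCA5 peak can take in several CTCF peaks at once, and its part in these shares was not tested. Counting only other CTCF-SMARCA5 sites, the nearest was a median of 53355.5 bp away.

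**Figure D4:**
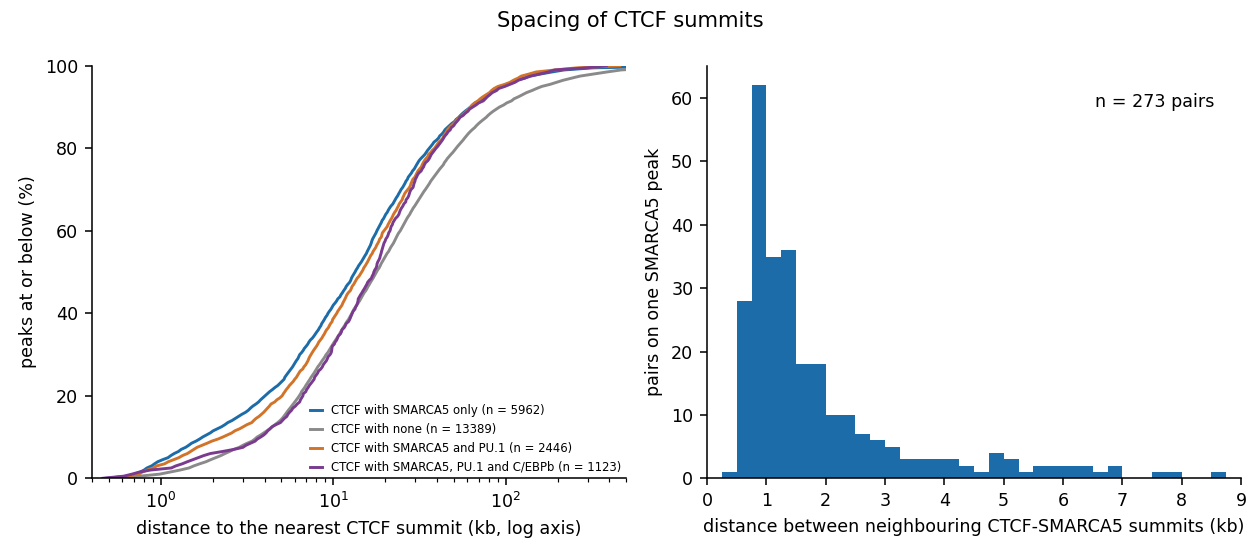
Left, the percentage of CTCF peaks (vertical axis) whose nearest CTCF summit lies at or within the distance on the horizontal log axis in kb, for 4 groups. The CTCF-SMARCA5 curve lies highest at short distances, with 23.3% within 5000 bp against 14.2% for CTCF alone. Right, the distances in kb between the 273 pairs of neighbouring CTCF-SMARCA5 summits on 1 SMARCA5 peak, in bins of 0.25 kb; 198 pairs lie within 2000 bp.

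Sites that share a SMARCA5 peak can lie no further apart than its width, a median of 3820 bp for peaks with 2 sites, so their short spacing is set by how the pairs were picked. The 273 pairs of neighbouring CTCF-SMARCA5 summits on 1 SMARCA5 peak had a median spacing of 1314 bp (quartiles 915 and 2107), from 482 to 8551 bp. Of these, 91 were under 1000 bp and 198 within 2000 bp (72.5%). All 648 neighbouring CTCF pairs on 1 SMARCA5 peak, with or without the myeloid factors, had a like spacing, with a median of 1387 bp and 71.3% within 2000 bp. The 1492 neighbouring pairs on different SMARCA5 peaks had a median of 29500.5 bp, and 13 of them were within 2000 bp. Neighbouring pairs of CTCF alone, 8096 in number, had a median of 39049 bp, with 249 within 2000 bp (3.08%). In the CTCF list as a whole, 2 of 25260 neighbouring pairs were under 500 bp apart.

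The 8 SMARCA5 peaks with 3 sites each held CTCF peaks with fold enrichments from 5.55 to 14.0. Ranked by the summed CTCF fold enrichment, the first spanned chromosome 14 from 26744393 to 26755290, with CTCF fold enrichments of 13.5, 9.4999 and 9.62 and spacings of 6893 and 1330 bp. The next, on chromosome 19 from 5616868 to 5619505, packed its 3 CTCF peaks into 2638 bp, at 718 and 641 bp from each other, and was the only one of the 8 without PU.1 or C/EBPb. Its CTCF fold enrichments were 11.1, 9.89 and 8.91. The third lay on chromosome 17 from 56438717 to 56443944, with 7.52, 7.66 and 12.7, and a PU.1 peak between the second and the third CTCF peak.

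**Figure D5:**
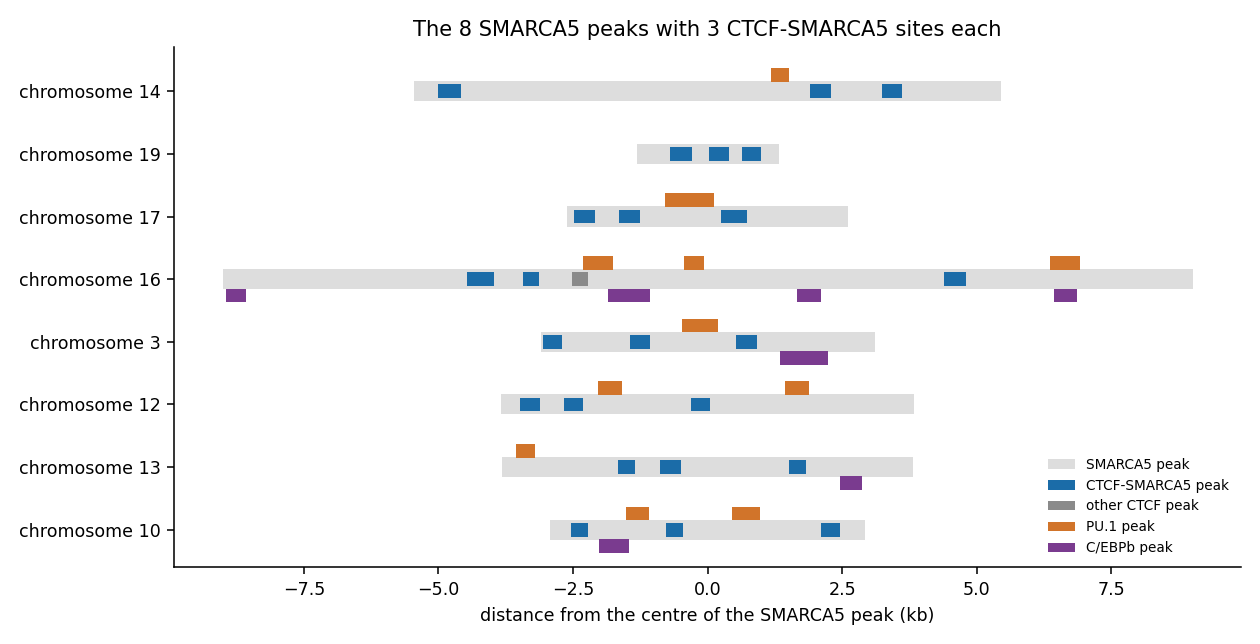
Each row is a SMARCA5 peak (light grey bar) with 3 CTCF-SMARCA5 sites (blue), drawn to scale by distance in kb from its centre, with PU.1 peaks above and C/EBPb peaks below the bar and 1 other CTCF peak in dark grey. Rows run from the highest to the lowest summed CTCF fold enrichment. The widths range from 2638 bp on chromosome 19 to 18023 bp on chromosome 16, and 7 of the 8 also hold PU.1.

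Although free of the myeloid factors, the sites were near them. The nearest PU.1 summit was a median of 3153.5 bp away and the nearest C/EBPb summit 8573.5 bp, against 9978 and 24851 bp for CTCF alone. Both distances were shorter on all 20 chromosomes. A PU.1 summit lay within 5000 bp of 63.7% of sites (62.4 to 64.9) and of 29.0% of CTCF alone (28.3 to 29.8). For C/EBPb the shares were 37.7% (36.5 to 39.0) and 12.5% (11.9 to 13.0). Such nearness was not particular to these sites. A PU.1 summit lay within 5000 bp of 71.6% of CTCF peaks with SMARCA5 and C/EBPb, and of 39.8% with C/EBPb without SMARCA5. A C/EBPb summit lay that near 33.4% of CTCF peaks with SMARCA5 and PU.1, and 13.8% with PU.1 without SMARCA5. On mixed SMARCA5 peaks the median to PU.1 was 1384 bp, and on CTCF-only peaks the median of 7185 bp was also below that of CTCF alone.

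The fold enrichment of CTCF alone was lowest close to SMARCA5. The median CTCF fold enrichment was 8.33 for the 113 peaks with a gap of up to 500 bp to a SMARCA5 peak, 9.14 for the 126 from 500 to 1000 bp, 11.2 for the 1985 from 5000 to 10000 bp and 11.03 for the 3564 beyond 50000 bp. The median -log10 q was also lowest up to 500 bp, at 30.1, but it was highest from 2000 to 5000 bp, at 47.5, and 37.9 beyond 50000 bp. Across the edge of the rule, the 236 CTCF-SMARCA5 sites with less than 50% of their CTCF peak on SMARCA5 had a median of 10.2.

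The deposited score of a CTCF peak lay within 0.995 of 10 times its -log10 q and was not always whole. Its decimal part was 0.25 or 0.75 at 41.7% of CTCF-SMARCA5 sites (40.5 to 43.0) and at 33.8% of CTCF alone (33.0 to 34.6), and higher at the former on 19 of 20 chromosomes. It was 41.5% with SMARCA5 and PU.1 and 37.1% with all 4 proteins. Without SMARCA5 it was 42.8% with PU.1, 38.6% with C/EBPb and 35.9% with both. On CTCF-only SMARCA5 peaks it was 44.0% (42.2 to 45.7) and on mixed ones 39.2% (37.4 to 41.0). How the scores were made was not stated in the labels or the lists.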

How the data were processed

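Chromatin immunoprecipitation sequencing of mouse bone marrow-derived macrophages gave 40 libraries in 20 groups of 2, of which the 20 for H3K27ac are not analysed here. The 4 consensus lists are as deposited. Per the submitters' processing notes, STAR 2.7.9a, Picard 2.27.4, MACS2 2.2.7.1, deepTools 3.5.1 and the build mm39 were used; no source at hand states their roles, the treatment of replicates or the rule for the consensus. The fold enrichment is the deposited ratio over local background as MACS2 writes it, the -log10 q is the deposited significance, and the score is a deposited column of the authors. These values are the authors' own per peak, and were compared only within the CTCF list or within the SMARCA5 list. Replicates within a group are not said to come from separate animals.

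Overlap is 1 shared bp; a CTCF peak on 2 SMARCA5 peaks was placed on the one it shared most with. The summit is the peak start plus the deposited summit offset, and positions are printed counting from 1. The inner 50% runs from 0.25 to 0.75 of the SMARCA5 width. A total of 27 CTCF peaks on other sequences were left out. Work was done in Python 3.11.15 with NumPy 2.4.6, pandas 2.3.3, SciPy 1.17.1 and matplotlib 3.10.9, and the placement steps were tested on simulated peaks. Named regions are the 5 sites with the highest fold enrichment, the 5 with the highest -log10 q, the 3 SMARCA5 peaks with the most sites, and the 3 peaks on either side of the SMARCA5 rule. The sites and groups were chosen with earlier results of these data known, and the split into CTCF-only and mixed SMARCA5 peaks, the widths, the pairs with 1 PU.1 peak, the distances to SMARCA5 and the choice of groups to compare were worked out on the data. The gene and promoter tables at hand are on GRCm38.p6, another build, so distances to genes and the CTCF motif, which were planned, were not run. The alternatives tried are other rules for overlap, distance, threshold, width and chromosomes, ranking by -log10 q, and another choice of neighbours.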

Additional observations from a re-analysis of the deposited data

How the results depend on the processing

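Of 55 values under alternative settings, 31 stayed within the 95% interval of the reported value and 24 moved outside it. For the number of sites the bound was 1.5 times, and for -log10 q it was the same direction. Only differences can turn direction, and 0 did so. They were 10 values of the excess over CTCF alone and 8 of the gap between CTCF-only and mixed SMARCA5 peaks. The cause of the moves was not tested beyond what each setting leaves out. Requiring 50% of the CTCF peak or its summit on SMARCA5, or autosomes only, moved none of the 6 results. Both position results use only summits inside SMARCA5, so the summit rule could not change them. These unchanged values are counted among the 31. The 5962 sites became 3127 on SMARCA5 peaks free of PU.1 and C/EBPb, 3331 and 3724 in the upper 50% of the CTCF list by fold enrichment and by -log10 q, and 3208 with the upper 50% of the SMARCA5 list. In that order, the median fold enrichment of 12.3 became 13.1, 14.8, 14.4 and 12.7, and the median distance of 13394 bp to the nearest CTCF summit became 14765, 31524, 24729 and 14169 bp, thinner CTCF lists having longer distances by construction. The median fold was 12.5 with no PU.1 or C/EBPb within 500 bp and 12.6 without SMARCA5 peaks over 5 kb. The excess of 1.32 in median fold over CTCF alone was 2.08 on SMARCA5 peaks free of PU.1 and C/EBPb, 1.55 with the upper 50% of SMARCA5 and 1.57 without peaks over 5 kb, but 0.908 in the upper 50% of CTCF by fold enrichment and 0.177 by -log10 q. In -log10 q itself the excess was 21.5. The 52.2% of summits in the inner 50% became 62.2% on SMARCA5 peaks free of PU.1 and C/EBPb, 54.2% with the upper 50% of SMARCA5 and 54.0% without peaks over 5 kb. The gap of 21.1 points between CTCF-only and mixed SMARCA5 peaks was 27.1 with no PU.1 or C/EBPb within 500 bp. That setting keeps only mixed-peak sites further from the other factor, and its part in the wider gap was not tested. With only CTCF-SMARCA5 sites as neighbours the median distance was 53355.5 bp. No paired analysis was possible because no deposited value belongs to a library, and leaving out a replicate was likewise not run. Depth per library is unknown, so a protein missing from a list at a site cannot be taken as unbound there.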

Other observations

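CTCF-SMARCA5 sites were spread over all 20 chromosomes, with chromosome X apart from the autosomes. They made up between 20.2% of CTCF peaks, on chromosome 8, and 26.6%, on chromosome 19, over the autosomes, but 11.4% (66 of 579, Wilson interval 9.06 to 14.2) on X. The X chromosome also held fewer peaks of both lists per Mb between its first and last CTCF peak: 3.55 CTCF and 4.67 SMARCA5 peaks, against 7.63 to 16.5 CTCF and 12.1 to 21.9 SMARCA5 peaks on autosomes. CTCF strength at these sites on X did not stand out, with a median fold enrichment of 12.3, where autosomes ranged from 11.5 to 13.1. The part of the low X share that goes with sparse SMARCA5 peaks was not tested.

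The next CTCF peak to the right was again a CTCF-SMARCA5 site for 29.6% of them, against 18.97% of CTCF peaks with none of the other proteins. The sites made up 23.6% of all CTCF peaks. Of the 1765 pairs of neighbouring sites, 273 shared a SMARCA5 peak. The longest unbroken run counted 9 sites. It spanned 322 kb of chromosome 12, from 85387801 to 85710101, on 9 SMARCA5 peaks of which 2 were free of PU.1 and C/EBPb, with CTCF fold enrichments from 5.96 to 19.4. A denser run of 7 lay on chromosome 15 from 76080720 to 76123665, within 42.9 kb and on 5 SMARCA5 peaks. Both runs were picked after their values were seen.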
